A study of Mus musculus with 4 samples.

Results

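Natural killer (NK) cells decide whether to attack a cell by weighing signals from activating and inhibitory receptors, and the genes described here encode ligands of those receptors. They are 9 genes chosen by name from the expression table of 4 mouse oral cancer lines: Clec2d, Clec2e and Clec2g of the Clec2 lectin family, the NKG2D ligands Ulbp1, Raet1d, Raet1e and H60b, and the nectin family members Pvr and Nectin2. All 9 were found among the 34721 entries of the table by their GENCODE M21 symbols. The genes were picked with results of these data known, so their levels are given as a description, without a test.

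The lines come from tumors that grew in the mouth of male C57BL/6 mice whose buccal mucosa was treated with the carcinogen dimethylbenzanthracene (DMBA). AOC3 and AOC11 were made from the oral tumor of 2 different mice, and their partners AOC3-LN and AOC11-LN from a lymph node metastasis in each of these animals. Before the lines were set up, the cells were grown as a tumor under the skin of C57BL/6 mice and freed of fibroblasts with a kit, and the labels name no treatment of the cultured cells. Each line is 1 library, so every difference between lines compares single libraries and has no replicate error.

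Clr-b, the product of Clec2d, is a ligand of the inhibitory receptor NKR-P1B, and loss of Clr-b from a cell surface releases NK cells from that brake. NKG2D is an activating receptor whose ligands, among them the Ulbp1 product MULT-1 and the RAE-1 and H60 proteins, appear on stressed, infected or transformed cells. Pvr (CD155) and Nectin2 (CD112) are adhesion proteins that bind the activating receptor DNAM-1 and the inhibitory receptor TIGIT, and CD155 also binds CD96.

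Levels are in FPKM, the number of sequenced fragments scaled to transcript length and library size, so they can be set against each other between genes. The FPKM values were scaled to between 28300000 and 33800000 fragments, as estimated from the steps between low values. Differences between lines are on the log2(FPKM + 1) scale after quantile normalization. The threshold was a log2 difference beyond 1 in size in either direction, read for the 14165 entries whose highest line reached 1 FPKM. Of the 9 genes, 5 met that filter: Clec2d, Clec2g, Ulbp1, Pvr and Nectin2. The identity of the cells was checked on marker lists. All 7 epithelial markers met the filter, and Epcam, an epithelial adhesion protein, had between 416 and 518 FPKM. Krt5 and Trp63, genes of basal squamous cells, were higher in the AOC3 lines, at log2 differences of 5.19 and 1.12 between the means. Krt14, also on the epithelial list, went the other way, at -0.69, which is within the threshold. Its level was 166 (AOC3), 150 (AOC3-LN), 257 (AOC11) and 259 FPKM (AOC11-LN). Krt5 had 499 (AOC3), 275 (AOC3-LN), 4.99 (AOC11) and 17.0 FPKM (AOC11-LN), and Trp63 had 1.69, 2.10, 0.0848 and 0.841 FPKM in the same lines. The part of these markers in the differences between the AOC3 and the AOC11 lines was not tested. The 8 markers of T and NK cells were at 0 except Klrb1c, with 0.138 FPKM in AOC11. The 8 fibroblast markers summed to between 0.246 and 1.17 FPKM per line. Of 6 macrophage markers, Csf1r and Cd14 met the filter, and the list summed to 8.32 (AOC3), 9.05 (AOC3-LN), 27.7 (AOC11) and 12.4 FPKM (AOC11-LN). Adgre1 was at 0 in all 4 lines and Ptprc at no more than 0.0640 FPKM. Csf1r, the receptor for colony-stimulating factor 1, had 0.995 (AOC3), 0.435 (AOC3-LN), 20.8 (AOC11) and 6.01 FPKM (AOC11-LN). Csf1r was thus highest in the same line as Clec2g, and its part in the Clec2g result was not tested.

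Clec2d, Clec2e and Clec2g lie on chromosome 6 in a cluster with genes of the Klrb1 family, which encodes receptors for Clec2 proteins. The stretches before the start sites of the 3 Clec2 genes are shown first, because Clec2g and Clec2d differed between the lines and their neighbor Clec2e was not detected. Each line holds the 250 bases before the RefSeq start (build GRCm38.p6, the assembly also named mm10), written along the strand of the gene. The windows are chr6:129180365-129180614 on the plus strand for Clec2d, chr6:128934131-128934380 on the plus strand for Clec2g and chr6:129100904-129101153 on the minus strand for Clec2e. Capitals mark matches to the motifs that were searched.
Clec2d: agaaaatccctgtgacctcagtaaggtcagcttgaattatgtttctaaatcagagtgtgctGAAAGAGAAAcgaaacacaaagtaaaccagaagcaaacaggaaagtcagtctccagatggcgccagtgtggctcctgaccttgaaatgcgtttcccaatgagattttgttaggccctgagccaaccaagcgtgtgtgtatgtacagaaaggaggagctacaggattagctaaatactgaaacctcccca
Clec2g: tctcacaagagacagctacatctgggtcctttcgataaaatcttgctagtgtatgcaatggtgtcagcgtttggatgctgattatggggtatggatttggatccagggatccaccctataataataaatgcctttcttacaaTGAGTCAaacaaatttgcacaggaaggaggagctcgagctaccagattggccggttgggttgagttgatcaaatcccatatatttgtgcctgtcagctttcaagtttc
Clec2e: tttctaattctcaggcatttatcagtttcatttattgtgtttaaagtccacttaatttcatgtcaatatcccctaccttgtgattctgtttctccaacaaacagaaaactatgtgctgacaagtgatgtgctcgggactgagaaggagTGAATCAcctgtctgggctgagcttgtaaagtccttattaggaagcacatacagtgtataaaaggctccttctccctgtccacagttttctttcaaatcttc
The motifs searched, on both strands, were the core of the interferon-stimulated response element, the gamma-activated site (TTCNNNGAA), the AP-1 site (TGANTCA) and E2F sites (TTTCGCGC, TTTGGCGC or TTTCCCGC). Clec2d had 1 match, to the interferon-stimulated response element core, between 189 and 180 bases before the start, and 2.98% of 32841 promoter windows of the same length held such a match. Clec2g had an AP-1 match 108 to 102 bases before the start, and Clec2e had an AP-1 match 102 to 96 bases before it. An AP-1 match was present in 6.75% of all windows. Windows extended by the first 50 bases after the start were also compared. In these, Clec2d and Clec2g share a run of 22 bases, TCAGCTTTCAAGTTTCAATCCT, which spans bases 15 to 36 after the start of Clec2d and runs from 16 bases before to 6 bases after the start of Clec2g. The longest run shared by Clec2d and Clec2e was 10 bases. RefSeq windows were matched for 7 of the 9 genes, and the motifs were not found in the windows of Nectin2, Ulbp1, Raet1d and Raet1e. A match of letters is a description and does not show that a factor binds.

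Clec2g was the most variable of the 9 genes. It is annotated at chromosome 6, 128934381 to 128984707 on the plus strand (ENSMUSG00000000248.16), with 6 transcripts. Its level was 0.199 (AOC3), 0.199 (AOC3-LN), 59.9 (AOC11) and 8.82 FPKM (AOC11-LN). Both lines of the AOC11 mouse were thus high and both lines of the AOC3 mouse low, and the AOC11 line stood far above its lymph node partner. The AOC11 level was 302 times the AOC3 level, and the AOC11-LN level was 44.4 times the AOC3-LN level. The AOC11 level was 6.79 times that of AOC11-LN. On the normalized log2 scale the difference was -4.30 between the means of the AOC3 and the AOC11 lines, -5.64 between AOC3 and AOC11, and -2.96 between AOC3-LN and AOC11-LN. The lymph node line minus the primary line was 0.05 in the AOC3 mouse and -2.64 in the AOC11 mouse. The AOC3 value rests on between 3.77 and 15.4 fragments and the AOC11 value on between 1102 and 4614, depending on which coding transcript the fragments are given to. So the low level in the AOC3 lines is known only roughly, and such numbers cover counting error only. In AOC11, Clec2g was above 86.8% of the entries that passed the filter, and in AOC3 above 2.82% of them.

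**Figure D1:**
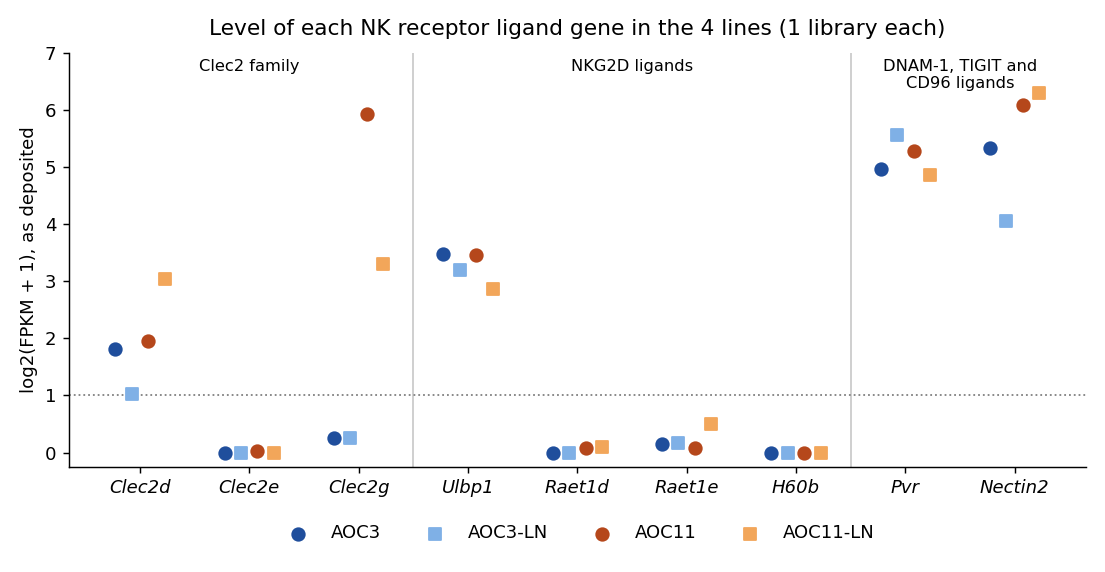
Level of each of the 9 genes in the 4 lines, as log2(FPKM + 1) of the deposited values on the vertical axis, with 1 point per library; circles are primary tumor lines, squares lymph node lines, and the dotted line marks 1 FPKM. Clec2g separates the AOC11 lines (59.9 and 8.82 FPKM) from the AOC3 lines (0.199 FPKM in each), whereas Ulbp1 lies between 6.30 and 10.2 FPKM in all 4.

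Clec2d (ENSMUSG00000030157.5) lies at chromosome 6, 129180615 to 129186534 on the plus strand and has 1 annotated transcript of 1213 bases. It had 2.51 (AOC3), 1.03 (AOC3-LN), 2.87 (AOC11) and 7.22 FPKM (AOC11-LN). These values stand for about 88.8, 31.0, 99.8 and 246 fragments. The primary lines were close to each other, and the lymph node lines lay at opposite ends of the order, lowest in AOC3-LN and highest in AOC11-LN. The level in AOC11-LN was 6.98 times that in AOC3-LN, a log2 difference of -1.87, whereas AOC11 had 1.14 times the level of AOC3, a log2 difference of -0.22. Within a mouse, AOC3 had 2.43 times the FPKM of AOC3-LN, and AOC11-LN had 2.51 times the FPKM of AOC11. The normalized log2 differences, lymph node minus primary, were -0.66 and 0.98. Both are within the threshold. With a pseudocount of 0.1 both were just past it, at -1.003 and 1.18, and the latter was also past it without quantile normalization, at 1.09, and after scaling by the median, at 1.07. Between the means of the AOC3 and the AOC11 lines the log2 difference was -1.05. It was -0.72 without AOC3-LN and -0.56 without AOC11-LN.

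Clec2e (ENSMUSG00000030155.7, chromosome 6, 129091998 to 129100913, minus strand) was listed at 0 in AOC3, AOC3-LN and AOC11-LN and had 0.0154 FPKM in AOC11. That value equals about 0.998 of a fragment. A count of 0 allows up to 3 fragments, which is between 0.0460 and 0.0545 FPKM for its transcript of 2099 bases, so Clec2e was not detectable at this depth in any line and no fold is given.

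The other genes of the Clec2 family were looked up as well. Clec2f, annotated as a transcribed pseudogene 29.4 kb beyond Clec2g, had 32.3 (AOC3), 41.0 (AOC3-LN), 49.8 (AOC11) and 41.9 FPKM (AOC11-LN). It was therefore at a similar level in the 4 lines, with log2 differences between -0.55 and 0.34 over the 5 comparisons, while Clec2g next to it was not. Clec2f has annotated transcripts of only 374 and 657 bases, which makes its FPKM uncertain. No stretch of 100 bases is shared between the annotated transcripts of Clec2f and Clec2g, or between those of Clec2d, Clec2e or Clec2g and any other gene. Clec2h was at 0 in all 4 lines, Clec2i had 0.114 FPKM in AOC11 and 0 elsewhere, and Clec2l had between 0.0243 and 0.164 FPKM. Clec2j and Clec2m had no entry under these symbols.

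**Figure D2:**
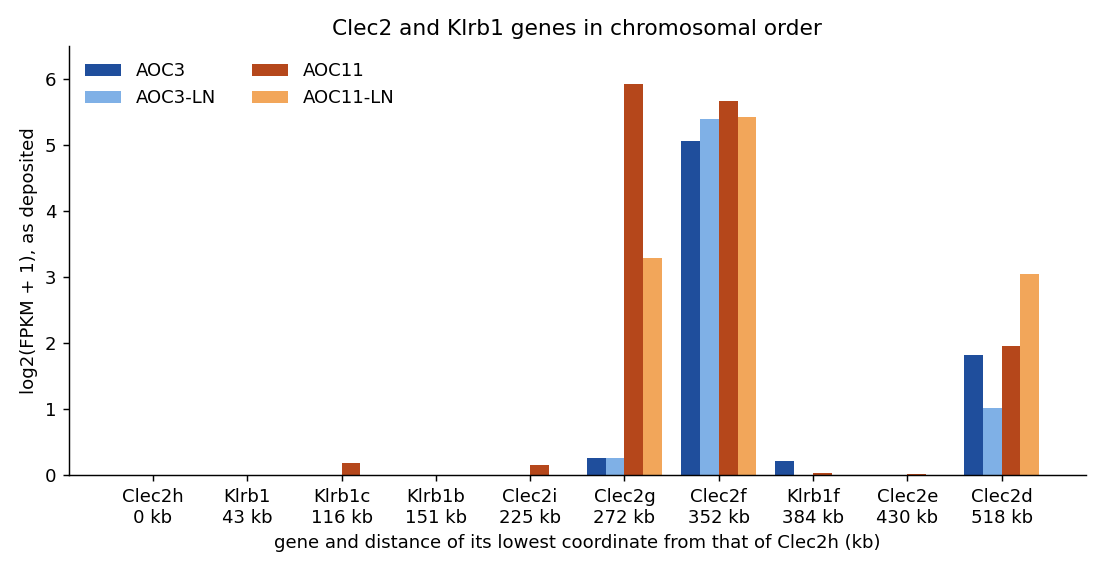
Clec2 genes and the Klrb1 receptor genes in their order along chromosome 6, with the distance of each gene from Clec2h in kb under its name; bars give log2(FPKM + 1) of the deposited values in each of the 4 single libraries. Clec2f is high in all 4 lines, Clec2g only in the AOC11 lines, Clec2d is at 1.03 to 7.22 FPKM, and no other gene shown reaches 1 FPKM.

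Ulbp1 was the NKG2D ligand gene that the lines expressed, at a similar level in each. It lies at chromosome 10, 7440362 to 7473638 on the minus strand (ENSMUSG00000079685.10). It had 10.2 (AOC3), 8.21 (AOC3-LN), 10.05 (AOC11) and 6.30 FPKM (AOC11-LN), so AOC11-LN was the lowest and the primary lines were almost equal. AOC3 had 1.01 times the level of AOC11, and AOC11 had 1.59 times the level of AOC11-LN. The log2 differences were -0.18 for AOC3-LN minus AOC3, -0.63 for AOC11-LN minus AOC11, 0.03 between the primary lines and 0.47 between the lymph node lines. Ulbp1 made up between 92.8% and 99.0% of the summed FPKM of the 4 NKG2D ligand genes in each line.

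The remaining NKG2D ligand genes were at or near 0. Raet1d (ENSMUSG00000078452.10, chromosome 10, 22360552 to 22374139) was listed at 0 in both AOC3 lines and had 0.0544 FPKM in AOC11 and 0.0694 in AOC11-LN, which is under 3 fragments in each. Raet1e (ENSMUSG00000053219.15, chromosome 10, 22158569 to 22374139) had 0.107 (AOC3), 0.126 (AOC3-LN), 0.0572 (AOC11) and 0.420 FPKM (AOC11-LN). AOC11-LN was the highest, and its value rests on between 7.17 and 19.3 fragments. H60b (ENSMUSG00000075297.10, chromosome 10, 22158586 to 22288849) was at 0 in AOC3-LN and AOC11, and the values listed for AOC3 and AOC11-LN are far below that of 1 fragment. The annotation places H60b and Raet1d inside the span of Raet1e. Of the 1340 stretches of 100 bases in Raet1d transcripts, 35.7% are also in Raet1e transcripts, so reads of the 2 genes cannot be fully told apart. The RefSeq windows from 250 bases before to 50 bases after the start of Raet1d and the second start of Raet1e, aligned over 298 bases, are identical at 295 of them. H60c, a further NKG2D ligand gene, had 0.264 FPKM in AOC3 and no more than 0.0403 in the other lines. Raet1a, Raet1b, Raet1c and H60a were looked up and had no entry under these symbols, so no level can be given for them.

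Pvr and Nectin2 were the most abundant of the 9 genes in 3 of the 4 lines, and they differed from each other in pattern although they lie 153 kb apart on chromosome 7. Nectin2 (ENSMUSG00000062300.14, chromosome 7, 19716644 to 19750483, minus strand) had 39.6 (AOC3), 15.6 (AOC3-LN), 67.2 (AOC11) and 78.2 FPKM (AOC11-LN). Both AOC11 lines were above both AOC3 lines, and AOC3-LN was the lowest of the 4. AOC3 had 2.54 times the level of AOC3-LN, and AOC11-LN had 5.02 times the level of AOC3-LN. The log2 difference was -1.23 for AOC3-LN minus AOC3 and 0.21 for AOC11-LN minus AOC11. It was -0.71 between the primary lines, -2.15 between the lymph node lines and -1.43 between the means of the AOC3 and the AOC11 lines. Without AOC3-LN this last difference was -0.82, which no longer passes the threshold.

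Pvr (ENSMUSG00000040511.14, chromosome 7, 19903578 to 19921160, minus strand) had 30.2 (AOC3), 46.6 (AOC3-LN), 37.9 (AOC11) and 28.2 FPKM (AOC11-LN). AOC3-LN was thus the line with the most Pvr and the least Nectin2, and AOC11-LN the line with the least Pvr and the most Nectin2. The log2 differences of Pvr were 0.60 for AOC3-LN minus AOC3, -0.41 for AOC11-LN minus AOC11, -0.27 between the primary lines and 0.75 between the lymph node lines, all within the threshold. The ratio of Nectin2 to Pvr was 1.31 (AOC3), 0.334 (AOC3-LN), 1.78 (AOC11) and 2.78 (AOC11-LN). The summed FPKM of Pvr and Nectin2 varied less, from 62.2 in AOC3-LN to 106 in AOC11-LN. Gm20512, an annotated antisense gene that overlaps Nectin2, was highest in AOC3-LN at 7.17 FPKM and lowest in AOC11 at 1.98, and the strand setting of the mapping is not given in the sources used here, so reads in the overlap may not be separate.

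**Figure D3:**
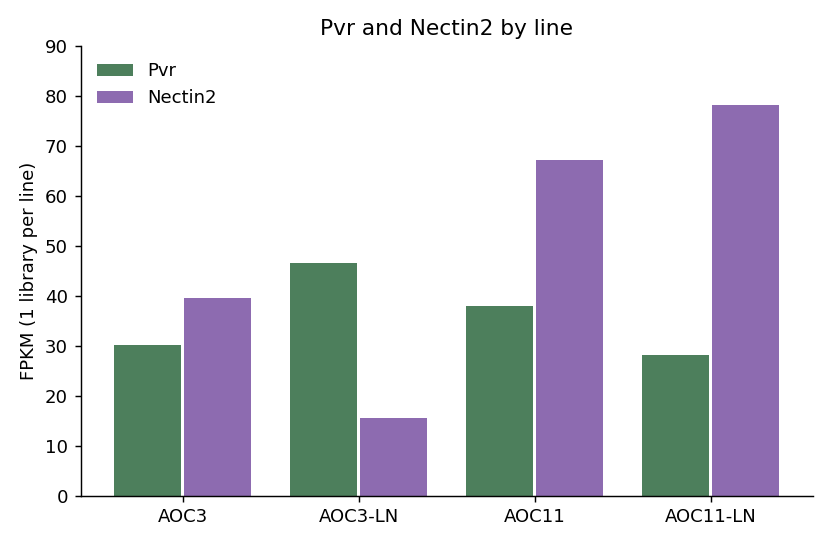
Pvr and Nectin2 in FPKM (vertical axis, from 0) in each line, with 1 library per line and so no error bar. Nectin2 is at 15.6 FPKM in AOC3-LN, the line in which Pvr is at 46.6.

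Counted over the 5 genes that met the filter, 3 were past the threshold between the means of the AOC3 and the AOC11 lines, namely Clec2d, Clec2g and Nectin2. All 3 were lower in the AOC3 lines, beside 11.1% of all entries past the threshold, 5.1% higher and 6% lower. Between AOC3 and AOC11 it was Clec2g, lower in AOC3, beside 11.9% of entries (6.25% higher and 5.69% lower). Between AOC3-LN and AOC11-LN it was again Clec2d, Clec2g and Nectin2, lower in AOC3-LN, beside 16.3% (7.58% higher and 8.69% lower). Without quantile normalization, 34.0% of the entries past the threshold in this last comparison were higher in AOC3-LN, against 46.6% with it. Between the lymph node and the primary line, Nectin2 was lower in AOC3-LN, where 5.53% of entries were past the threshold (2.11% higher and 3.42% lower). Clec2g was lower in AOC11-LN, where 8.11% were (4.97% higher and 3.14% lower). Without quantile normalization 71.2% of the entries past the threshold were higher in AOC11-LN, against 61.3% with it. The genes were chosen with these comparisons known, so nothing is read from their share. The comparisons also share libraries and are not independent of each other.

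**Figure D4:**
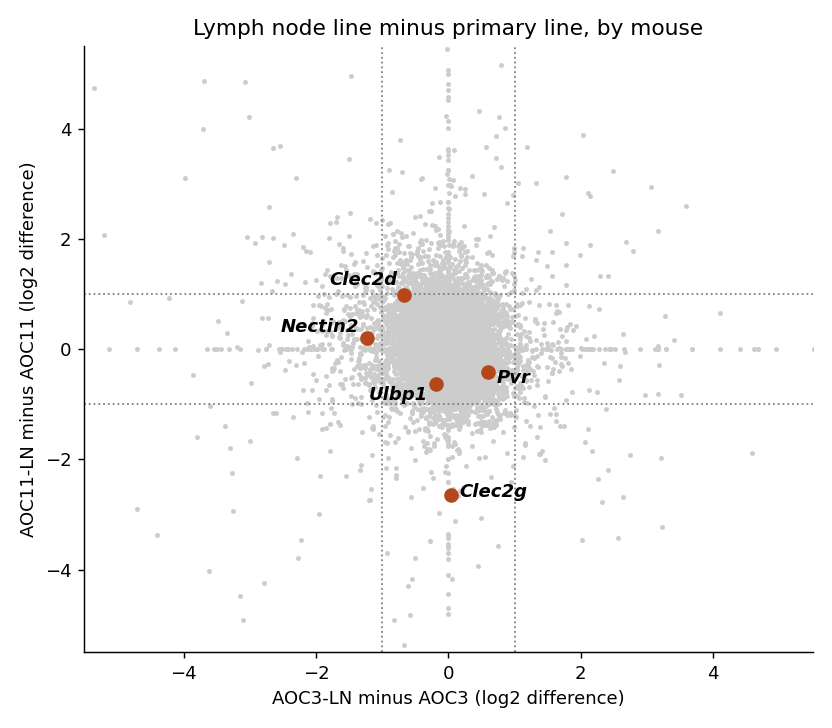
Log2 difference of the lymph node line minus the primary line in the AOC3 mouse (horizontal axis) and in the AOC11 mouse (vertical axis) for the entries that passed the filter, in gray, with 62 entries beyond the axes; dotted lines mark the threshold and the 5 named genes are in color. Nectin2 passes the threshold to the left, at -1.23, and Clec2g below, at -2.64.

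A wider list of 32 genes, with the rest of the 3 families and other ligands, adhesion proteins and cytokines that act on NK cells, was read in the same way. Of these, 26 had an entry and 15 met the filter. Between the means of the AOC3 and the AOC11 lines, 1 of the 15 was past the threshold as higher in the AOC3 lines and 4 as lower, beside 5.1% and 6% of all entries tested, with a median log2 difference of -0.12 against 0.01 over all entries. Between AOC3-LN and AOC11-LN, 6 were lower in AOC3-LN and 0 higher, beside 8.69% and 7.58% of all entries, with a median of -0.17 against 0.03. The 6 were Nectin4, H2-T23, B2m, Icam1, Il15 and Il18. AOC3-LN minus AOC3 gave 3 lower and 0 higher genes, beside 3.42% and 2.11% of all entries. AOC11-LN minus AOC11 gave 3 higher and 0 lower, beside 4.97% and 3.14%. The list was written with earlier results of these data known, so nothing is read from these shares.

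Several of these genes had their lowest value in AOC3-LN, as Nectin2 and Clec2d did. On the normalized scale, the rest of those that met the filter were lowest in another line. How many of all entries are lowest in AOC3-LN was not counted, so nothing is read from this. H2-T23, which encodes Qa-1, the ligand of the inhibitory receptor NKG2A, had 15.1 (AOC3), 6.404 (AOC3-LN), 32.0 (AOC11) and 33.5 FPKM (AOC11-LN). B2m, the light chain of class I molecules, had 459 and 272 FPKM in AOC3 and AOC3-LN and 452 and 851 in AOC11 and AOC11-LN. The heavy chain genes H2-K1 and H2-D1, whose products are bound by Ly49 receptors, did not follow it, with 385 to 449 and 163 to 198 FPKM over the 4 lines. Nectin4, a relative of Nectin2, had 4.94, 0.829, 5.80 and 7.98 FPKM. Icam1, a ligand of the integrin LFA-1 on NK cells, had 1.79, 0.377, 6.54 and 3.39 FPKM and passed the threshold both between the primary lines, at -1.48, and between the lymph node lines, at -1.49.

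Cadm1, the ligand of the receptor CRTAM, was higher in the AOC3 lines. It had 92.2 (AOC3), 77.1 (AOC3-LN), 25.8 (AOC11) and 53.1 FPKM (AOC11-LN), a log2 difference of 1.22 between the means of the AOC3 and the AOC11 lines. The difference was 1.89 between the primary lines and 0.56 between the lymph node lines, the latter within the threshold. Without AOC11, Cadm1 no longer passed the threshold between the means. The cytokine gene Il15, which supports NK cell survival, was at 0.232 FPKM in AOC3, listed at 0 in AOC3-LN, and at 1.13 in AOC11 and 2.74 in AOC11-LN. Cdh1, which encodes E-cadherin, a ligand of the inhibitory receptor KLRG1, was at 144 to 183 FPKM in all lines. Cd48, the ligand of the receptor 2B4, was listed at 0 in all 4 lines, as were Cd70 and Icam2.

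**Figure D5:**
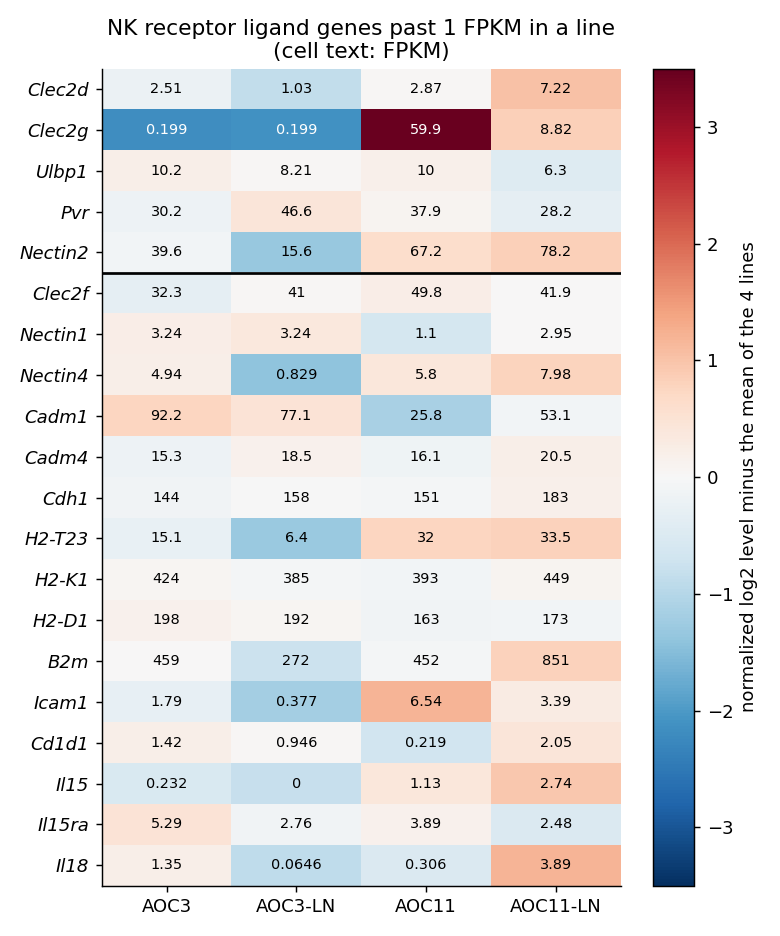
Normalized log2 level of each gene minus its mean over the 4 lines (color), with the deposited FPKM written in each cell; rows above the black line are the 5 genes described above that met the filter, rows below it the 15 further ligand and cytokine genes that did. On the normalized scale AOC3-LN is the lowest of the 4 lines for Clec2d, Nectin2, Nectin4, H2-T23, B2m, Icam1, Il15 and Il18. The other rows are lowest in another line.

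The genes whose centered pattern over the 4 lines lay nearest to each variable member were found among 11379 other protein-coding genes by the Euclidean distance of normalized log2 values. With 4 libraries many genes can have a like pattern, and 170 lay within 0.5 of Clec2d and 69 within 0.5 of Nectin2. Nearest to Clec2d were Cbr2, Trafd1 and Arrdc4, at distances of 0.09, 0.15 and 0.15. Nearest to Nectin2 were Tnnt2, Eci2 and Lgals1, at 0.09, 0.11 and 0.16. Clec2g had 0 genes within that distance, and its nearest were Cryab, C1s1 and U90926, at 1.11, 1.25 and 1.34. Cryab, a small heat shock protein, had 4.00 (AOC3), 1.21 (AOC3-LN), 101 (AOC11) and 34.3 FPKM (AOC11-LN). C1s1, a complement protease, had 0.249, 0.0257, 50.3 and 22.5 FPKM.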

How the data were processed

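Messenger RNA of the 4 cultured lines was sequenced as paired-end reads from a stranded kit, 1 library each. The authors used Trim Galore for trimming, TopHat2 for mapping to mm10 and Cufflinks with GENCODE M21 for the FPKM values that they deposited, and tool versions are not given in the sources used here. The methods name a log2 transformation and quantile normalization, which the deposited FPKM values do not have. Here FPKM plus a pseudocount of 1 was log2-transformed and quantile-normalized over 34721 entries, and the 14165 entries whose highest line reached 1 FPKM were kept. The fold step was run on simulated lines with changes larger than the threshold planted in 200 genes and an assumed noise. That run checks the computation and not the spread between real libraries. Symbols, positions and lengths are from GENCODE M21, and promoter windows from RefSeq (GRCm38.p6). Fragment totals were estimated for 9528 single-transcript genes: between 71.6% and 74.9% of low values lay within 0.1 of a whole number, so depth is approximate. No count test was run.

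With 1 library per line no p-value was computed. The members and gene lists were chosen with earlier results of these data known. All members are named, from the other lists the genes past the threshold or with the highest level, and others as examples, chosen after their values were seen. The 3 nearest genes were taken for members whose normalized log2 values range over more than 1. Alternatives were a pseudocount of 0.1, no quantile normalization, scaling by the median, no filter or at least 5 FPKM, a 1.5-fold threshold and leaving out each line. Python 3.11.15, numpy 2.4.6 and pandas 2.3.3 were used.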

Additional observations from a re-analysis of the deposited data

Results flagged for a closer look

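Il18, Mmp9 and Tigit had differences of opposite sign between the lymph node and the primary line in the 2 mice. They were picked because 1 difference passed the threshold and the other was also sizable. Clec2g, Nectin2, Nectin4, H2-T23, Cadm1 and Cd1d1 had opposite signs too, with 1 difference past the threshold. In these the other difference was at most 0.38 in size. Cell type markers were left out. Il18 was past the threshold in both mice, Mmp9 and Tigit in the AOC3 mouse and not in the AOC11 mouse. The difference between the mice was not tested, because each line is 1 library. Il18, a cytokine that activates NK cells, had a log2 difference, lymph node minus primary, of -1.08 in the AOC3 mouse and 1.71 in the AOC11 mouse. Its level was 1.35 (AOC3), 0.0646 (AOC3-LN), 0.307 (AOC11) and 3.89 FPKM (AOC11-LN). The AOC3-LN value rests on between 0.999 and 1.33 fragments, under 3, so it could not be told from 0. The AOC11 value rests on between 5.36 and 7.25 fragments. Mmp9, a matrix protease, had -2.81 and 0.57, with 46.8 (AOC3), 5.599 (AOC3-LN), 11.1 (AOC11) and 16.9 FPKM (AOC11-LN). Tigit, which encodes a receptor of Pvr and Nectin2 that is known from T and NK cells, had 2.12 and -0.74. It was at 18.3 (AOC3), 83.4 (AOC3-LN), 27.1 (AOC11) and 15.7 FPKM (AOC11-LN), which is about 465, 1804, 673 and 385 fragments over its transcript of 919 bases. The other 15 NK receptor genes had at most 0.417 FPKM, and Ncr1, Cd3e and Nkg7 were at 0 in all lines. No 100-base stretch of the Tigit transcript is shared with another annotated gene. The table gives no positions of reads, so it cannot be told where in the Tigit gene these fragments lie, and the values are those listed for the gene.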

How the results depend on the processing

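With 1 library per line the spread between replicates is unknown, and depth gives counting error only. Values under 3 fragments, as for Clec2e, Raet1d and H60b, could not be told from 0. The counts of members changed by more than 1.5 times as follows. AOC11-LN against AOC11 gave 2 genes (Clec2d joining Clec2g) after median scaling, with no quantile normalization or with 0.1 as the pseudocount, and 3 at 1.5-fold, against 1. AOC3 against AOC11 gave 2 at 1.5-fold, against 1, and AOC3-LN against AOC3 gave 2 with a pseudocount of 0.1 and 3 at 1.5-fold, against 1. Leaving out 1 line gave 1 to 3 members between the means of the AOC3 and the AOC11 lines, the 1 without AOC3-LN. For the further ligand genes, AOC11-LN against AOC11 gave 1 gene at 5 FPKM or more and 7 at 1.5-fold, against 3. AOC3 against AOC11 gave 7 with a pseudocount of 0.1, 5 after median scaling, 4 without quantile normalization and 7 at 1.5-fold, against 2. The means of the AOC3 and the AOC11 lines gave 8 at 1.5-fold, against 5, and AOC3-LN against AOC3 gave 5 with a pseudocount of 0.1 and 6 at 1.5-fold, against 3. Leaving out 1 line gave 4 to 7 of them between the means. The share of all entries past the threshold moved too. At 1.5-fold it was 13.8% (AOC3-LN against AOC3), 24.6% (AOC11-LN against AOC11), 28.8% (AOC3 against AOC11) and 26.9% (the means). With a pseudocount of 0.1 it was 10.2%, 14.6%, 18.6% and 18.5%, against 5.53%, 8.11%, 11.9% and 11.1% in the main setting. For AOC3 against AOC11 it was 12.4% after median scaling and 12.3% without quantile normalization. The settings for the filter and the 1.5-fold threshold leave the value of each member difference unchanged by construction, so they are no check of its size. Of 170 member differences read under the alternatives, these settings included, 154 kept their sign and side of the threshold, 3 no longer passed it and 10 newly passed it. The remaining 3 stayed within it but changed sign: Pvr went from 0.24 to -0.06 without AOC3-LN and Ulbp1 from 0.25 to -0.06 without AOC11-LN, both between the means, and Clec2g in AOC3-LN against AOC3 from 0.05 to -0.0001 without quantile normalization. Without quantile normalization the share of calls higher in AOC3-LN than in AOC11-LN went from 46.6% to 34.0%. The share higher in AOC11-LN than in AOC11 went from 61.3% to 71.2%. No result here comes from a test, so no paired test was run either. The lymph node and primary line of a mouse were compared within that mouse, and a test over the 2 within-mouse differences was not run.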

Other observations

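Genes that release ligands from the cell surface, genes of the damage response that is known to raise NKG2D ligands, and genes of killing by death receptors and granzymes were read beside the ligands. Only their RNA levels were read. The paper lists a stop-gain mutation of Atm in AOC3 and AOC3-LN and none in the AOC11 lines. It lists Trp53 mutations in all of the lines. Of 10 damage and E2F regulators, among them Atm, Chek1 and E2f1, 0 passed the threshold in any of the 5 comparisons. Over all entries, between 5.53% and 16.3% were past it, depending on the comparison. After scaling by the median, 1 of the 10 was higher in AOC3-LN than in AOC11-LN. At a 1.5-fold threshold, 1 was past in each comparison except AOC3-LN against AOC3. Of 6 genes for sheddases and ligand release, Mmp9 alone passed the main threshold in any comparison, beside the same shares over all entries. Adam10 and Adam17, proteases known to cleave NKG2D ligands, had 18.9 to 26.3 and 15.9 to 19.3 FPKM. Among 8 death receptor and granzyme inhibitor genes, 3 were lower in AOC3-LN than in AOC11-LN, beside 8.69% of all entries tested: Fas, Tnfrsf1a and Serpinb9. Their log2 differences were -1.09, -1.016 and -1.004. The Fas value in AOC3-LN rests on between 0.301 and 1.06 fragments. After scaling by the median, 2 were lower and 1 higher. Of the 8, 1 was lower in AOC11-LN than in AOC11 (3.14% of entries) and 1 in AOC3 than in AOC11 (5.69%). Between the means and in AOC3-LN against AOC3 it was 0. Fas had 0.263 (AOC3), 0.0282 (AOC3-LN), 1.14 (AOC11) and 1.497 FPKM (AOC11-LN), and Serpinb9b, a serpin of the granzyme B inhibitor family, had 6.14 FPKM in AOC11 and between 0.646 and 1.23 elsewhere. Cflar, an inhibitor of caspase-8 activation, had about 50.2 and 49.3 FPKM in AOC3 and AOC3-LN, and 27.7 and 25.1 in AOC11 and AOC11-LN, a log2 difference of 0.96 between the means.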
